A study of Saccharomyces cerevisiae with 24 samples.

Results

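The genes for the proteins of the cytosolic small ribosomal subunit of budding yeast (Saccharomyces cerevisiae) were followed through adaptation to hydrogen peroxide. They were taken by name, as every open reading frame (ORF) whose standard name is RPS and a number, with A or B where a gene has a second copy. This gave 56 of the 6251 ORFs measured, of which 24 pairs carry the letters A and B and 8 genes stand alone. The name alone chose them, so that their ratios played no part in the choice.

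Poly(A) RNA from peroxide-treated and untreated cells was hybridized together on 24 Agilent arrays with a pair of dyes, in 6 groups of 4. Wild type cells (BY4741, grown in YPD) were pretreated with 0.1 mM H2O2 for 45 min, adapted (0.1 mM for 45 min and then 0.4 mM for 1 h) or treated acutely (0.4 mM for 1 h with no low dose before it). The low dose of 0.1 mM was also given to strains of the BY4741 deletion collection that lack MGA2, ROX1 or YAP1, a transcription factor gene in each case. Within each group, replicates are separate cultures per the design text, and the treated RNA carried Cy5 on 2 arrays and Cy3 on 2. For wild type cells the untreated RNA came from a sham-treated portion of the same culture, whereas the labels of the deletion arrays say only that it was untreated. For YAP1 the study's text speaks of deletion cells set against wild type cells, so a yap1 ratio may hold a difference between strains as well as one of treatment, and these cannot be told apart here. The sources also differ on the length of the pretreatment, since the methods give it the same course as acute treatment apart from the dose. The labels were followed here.

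The small subunit binds mRNA, finds the start codon and holds the decoding centre, where codon and anticodon are matched. It is built from an RNA and a set of proteins that sit in its head, in its body or on its platform. In budding yeast most of these proteins are made from 2 gene copies that encode the same or nearly the same protein, and transcription of the whole set is known to be turned down together under many stresses.

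Of the 56 genes, 54 had a value on every array and were tested among 4373 ORFs. RPS6B had none on the acute arrays and RPS27B none on the rox1 deletion arrays, so each was fitted without those arrays. The RPS genes were among the brightest ORFs: the median member stood at percentile 98.2 of mean intensity, 51 of 54 lay in the top 5%, and RPS genes made up 24 to 44 of the 100 brightest ORFs of an array. Each deleted gene was without a value on the 4 arrays of its own strain. On the log2 scale a member's median standard error (SE) came to 0.12 within a group and to 0.176 between groups. Ratios below are log2 of treated over untreated intensity. A gene is said to have risen or fallen at a limma adjusted p under 0.05, adjusted over all ORFs tested.

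Acute treatment lowered nearly the whole set. The median RPS gene had a log2 ratio of -1.49, against -0.08 for all ORFs tested and -1.49 for the genes of the large subunit (RPL, 80 tested). Of 54 members, 52 fell and 0 rose, where 41.3% of all ORFs tested fell. On 4 of 4 arrays, 48 of 54 members were below 0, and the median over members on each array was -1.69, -1.78, -1.20 and -1.20. The lower pair of medians came from the arrays with treated RNA in Cy5. RPS27B, fitted without the rox1 arrays, fell by 1.49 ± 0.18 (SE, adjusted p = 3.49e-07). The ratios are normalized and relative to all mRNA of a sample, so a change in total mRNA per cell is not seen. As these are bulk samples, fewer cells with an mRNA and less of it in each cell cannot be told apart.

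**Figure D1:**
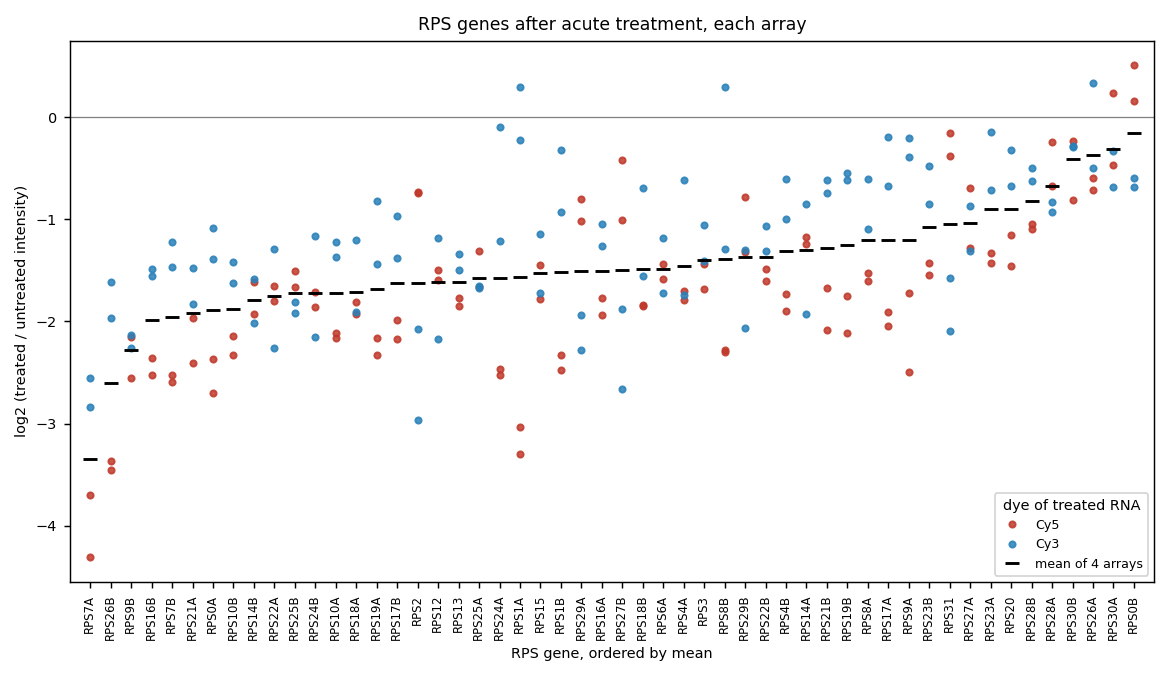
Log2 ratio of treated to untreated intensity (vertical axis) on the 4 acute arrays for the RPS genes shown, in order of their mean (horizontal axis). Red points had treated RNA in Cy5, blue points in Cy3, and black bars are means of 4 arrays. RPS7A and RPS26B lie lowest, and the means of RPS30A and RPS0B lie closest to 0.

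The deepest fall was that of RPS7A, which encodes a protein of the body. Its log2 ratios on the 4 acute arrays were -3.70, -4.31, -2.84 and -2.56, a mean of -3.35 ± 0.12 (SE, adjusted p = 3.83e-16) or 10.2-fold lower. No ORF had a lower ratio than RPS7A on replicate 2, and that value is the floor which all 4 arrays of the group share after normalization. Its copy RPS7B read -2.53, -2.59, -1.47 and -1.23 (mean -1.96 ± 0.11, 3.88-fold lower). All 4 values of RPS7B lay above the lowest 3 of RPS7A, and on every array RPS7A was the lower of the pair.

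RPS26B followed with -3.37, -3.45, -1.97 and -1.62, a mean of -2.60 ± 0.13 (adjusted p = 3.57e-14, 6.07-fold lower). Rps26 sits on the platform at the channel where mRNA leaves. The Cy5 arrays were the lower ones here, as they were for RPS7A, and no array was near 0. RPS9B, for a body protein at the entry channel known for its part in decoding accuracy, was steadier between dyes, at -2.15, -2.56, -2.13 and -2.27 (mean -2.28 ± 0.09, adjusted p = 4.84e-16, 4.84-fold lower).

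In the head, RPS16B was the lowest. Its protein reaches with its tail towards the tRNA in the P site, and it read -2.35, -2.53, -1.49 and -1.55 (mean -1.98 ± 0.13, adjusted p = 7.10e-12, 3.95-fold lower). Its Cy5 arrays were the lower ones. All 22 tested head genes fell (median -1.52), and 30 of 32 of the body and platform did (median -1.43). The 8 single-copy genes had a median of -1.57 and the 46 tested genes of pairs one of -1.48.

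At the other end, the 4 highest members had means between -0.41 and -0.15. RPS0B read 0.51, 0.15, -0.59 and -0.68 (mean -0.15 ± 0.19, adjusted p = 0.466). Rps0 is a body protein needed to mature the small subunit's RNA. The array signs of RPS0B were split by dye, above 0 in Cy5 and below in Cy3. Leaving out replicate 3 or replicate 4 gave means of 0.02 and 0.05, so no direction can be given for it. After loess within each array its mean was 0.28, but loess is no separate check, as set out below for RPS30B.

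RPS30A and RPS30B encode a small protein of the body that in mammals is made as a fusion with a ubiquitin-like protein and in yeast is not. RPS30A read 0.24, -0.47, -0.69 and -0.33 (mean -0.31 ± 0.15, adjusted p = 0.0656), turned to 0.08 after loess and passed the threshold without replicate 1 (-0.52, adjusted p = 0.00484). RPS30B read -0.24, -0.81, -0.28 and -0.30 (mean -0.41 ± 0.11, adjusted p = 0.00217). All 4 arrays of RPS30B were below 0, yet its call was lost after loess (-0.04, adjusted p = 0.744). Loess fits the ratio on intensity, and the RPS genes are among the brightest ORFs. Their shared fall thus enters the curve, and loess is no separate check of a member's fall.

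RPS26A, the copy of the strongly lowered RPS26B, read -0.60, -0.72, -0.50 and 0.33 (mean -0.37 ± 0.14, adjusted p = 0.0193). Replicate 4 alone was above 0. The call was lost with arrays centred on their medians (adjusted p = 0.0606), after loess (adjusted p = 0.747), and without replicate 1 (adjusted p = 0.0834), 2 (adjusted p = 0.121) or 3 (adjusted p = 0.104).

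Among other proteins, the 2 genes of Rps28 (RPS28A -0.67 ± 0.08, RPS28B -0.82 ± 0.12), which lies in the head near the exit channel, also fell by less than the median member. RPS20, a single-copy head gene, and RPS23A, for a protein of the decoding centre, both fell to -0.90 (SE 0.12 and 0.16). RPS31 is made as a fusion of ubiquitin and ribosomal protein and read -0.38, -0.15, -2.10 and -1.57 (mean -1.05 ± 0.25, adjusted p = 0.000708). The Cy5 arrays of RPS31 read far higher than its Cy3 arrays, so the size of its fall differed by dye. The other members in the plot of the acute arrays ran from -1.92 for RPS21A to -1.04 for RPS27A, and RPS14B and RPS22A, which are direct neighbours on chromosome X in the RefSeq gene order (assembly R64), read -1.79 and -1.75.

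Other genes of the same pathway were listed by role, and their counts stand beside the 41.3% of all ORFs that fell in the acute group. All 7 proteins listed as bound to the small subunit fell, among them ASC1 (-2.10 ± 0.08), for the protein of the head that scaffolds signalling, and RLI1 (-1.86 ± 0.17), for the ATPase that splits ribosomes. Of 22 assembly factors, 21 fell and 1, the kinase gene HRR25, rose (0.39 ± 0.11, adjusted p = 0.00251). DIM1, the methylase of the small subunit RNA, read -1.68 ± 0.08 and KRR1, needed in early assembly, -1.58 ± 0.12. Among 5 tested regulators that act at ribosomal protein promoters 2 fell, a share near that of all ORFs. RAP1 (-1.19 ± 0.13) and IFH1 (-0.53 ± 0.11) were these, while FHL1 (-0.50 ± 0.52, adjusted p = 0.39), HMO1 (-0.23 ± 0.14, adjusted p = 0.132) and SFP1 (-0.01 ± 0.14, adjusted p = 0.932) did not pass the threshold. The acute mean of FHL1 was close to that of IFH1, but its SE was far wider. All groups share a spread per ORF in the fit, and FHL1 had the lowest ratio of any ORF on rox1 deletion replicate 3 (-5.75). How far that array widened the acute SE was not tested.

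The same high dose after pretreatment gave no such fall. In adapted cells the median RPS ratio was -0.05, against -0.04 for all ORFs and -0.08 for RPL genes, and members ran from -0.40 (RPS1A) to 0.36. Means below 0 were found for 38 of 54 members, 67 of 80 RPL genes and 2549 of 4373 ORFs. RPS7A was the only member called, where 7.27% of ORFs fell, with -0.52, -0.76, -0.17 and -0.10 (mean -0.39 ± 0.12, adjusted p = 0.0417). All 4 arrays were below 0, with the Cy5 arrays lower. The call was lost without a dye term, after centring or loess, with a replicate block (adjusted p = 0.0561) and without replicate 2, 3 or 4 (adjusted p from 0.121 to 0.176). Centring also moved the split over all ORFs from 275 higher and 318 lower to 319 higher and 219 lower. Other fits called more members: a dye term per group, this group's arrays only, and ORFs valued in all 3 wild type groups. For these fits the shares of all ORFs are not given here.

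Set against adapted cells directly, acute cells had lower ratios for 52 of 54 members, where 32% of all ORFs were lower. The median difference was -1.44 for RPS genes, -1.40 for RPL genes and -0.04 for all ORFs. The lowest adjusted p belonged to RPS9B (-2.15 ± 0.12, adjusted p = 3.16e-12), and RPS7A showed the widest difference of these, at -2.96 ± 0.18. RPS26B differed by -2.48 ± 0.18, RPS7B by -1.95 ± 0.15, RPS10B, for a head protein, by -1.77 ± 0.14, and RPS25B, for a head protein that cells can grow without, by -1.53 ± 0.13. The exceptions were RPS0B (-0.34 ± 0.26, adjusted p = 0.277) and RPS30A (-0.41 ± 0.21, adjusted p = 0.103).

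In pretreated wild type cells no member passed the threshold, where 1.01% of ORFs did in either direction, and 4 members had an unadjusted p under 0.05. Members ran from -0.24 to 0.38 with a median of -0.04. Of these 4, RPS4A (0.38 ± 0.16, adjusted p = 0.434) and RPS14A (0.31 ± 0.14, adjusted p = 0.511) were higher and the Rps25 pair was lower. RPS25B read -0.15, -0.24, -0.21 and -0.36 (mean -0.24 ± 0.09, adjusted p = 0.36) and RPS25A -0.48, -0.29, -0.02 and -0.12 (mean -0.23 ± 0.09, adjusted p = 0.434). Both genes were below 0 on 4 of 4 arrays. Only with the 4 arrays of this group fitted alone were there calls, 26 of them, 13 higher and 13 lower. The share of all ORFs called in that fit is not given here, so the 26 are not read as a result about the members.

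Adapted minus pretreated gave 0 calls among members, with 0.503% of ORFs called, and 1 member had an unadjusted p under 0.05. This was RPS1A (-0.61 ± 0.24, adjusted p = 0.377), for a platform protein, whose ratio was 0.20 in pretreated and -0.40 in adapted cells. Next to the fall after acute treatment, the spread of members in both of these groups was small: the standard deviation (SD) over members was 0.15 in each and 0.56 in acute cells. Over all ORFs tested the SD was 0.15 in pretreated, 0.26 in adapted and 0.92 in acute cells.

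**Figure D2:**
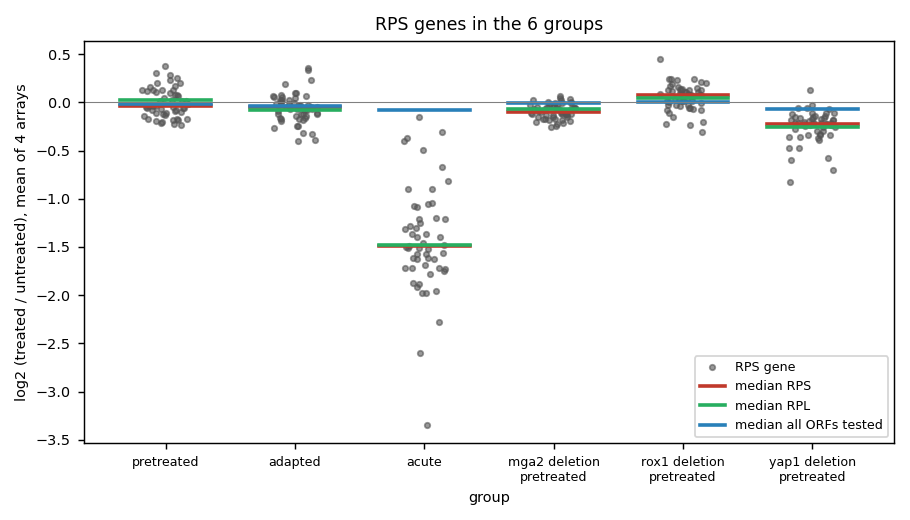
Mean log2 ratio of treated to untreated intensity over 4 arrays (vertical axis) for each tested RPS gene (points) in the 6 groups (horizontal axis). Lines give the median of RPS genes (red), RPL genes (green) and all ORFs tested (blue). The median of the RPS points is -1.49 in the acute group, -0.22 in the yap1 deletion strain and -0.10 in the mga2 deletion strain. It is -0.04 in pretreated cells, -0.05 in adapted cells and 0.08 in the rox1 deletion strain.

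Some RPS genes had low ratios on the arrays of the low dose in cells without YAP1, the gene for a main activator of the peroxide response. In this group 12 of 54 members fell, where 20.6% of all ORFs did, so that the share of members was near that of all ORFs. Their median was -0.22, against -0.07 for all ORFs and -0.26 for RPL genes. A mean below 0 was found for 53 of 54 members, 75 of 80 RPL genes and 2663 of 4373 ORFs. The counts depended on the fit, from 4 members with no dye term and 6 after loess to 30 with a dye term for each group. More still were called with the group's own arrays only. Shares of all ORFs in these fits are not given here. Without replicate 2 there were 7. Over all ORFs the split of 670 higher and 902 lower became 794 higher and 626 lower after centring, with 10 members called.

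RPS7A again read lowest, at -0.99, -1.18, -0.56 and -0.57 (mean -0.82 ± 0.12, adjusted p = 2.22e-05, 1.77-fold lower). RPS26B came next with -0.84, -1.03, -0.45 and -0.50 (mean -0.70 ± 0.13, adjusted p = 0.000171), although its call was lost with no dye term (adjusted p = 0.0682). For both genes every array was below 0 and the Cy5 arrays were lower, the same order as in acute cells.

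RPS27A, for a zinc-binding protein of the platform, read -0.48, -0.67, -0.66 and -0.57 (mean -0.60 ± 0.12, adjusted p = 0.000441), with no sign of a dye difference. RPS21A, for a partner of Rps0, read -0.32, -0.65, -0.42 and -0.49 (mean -0.47 ± 0.11, adjusted p = 0.00223). RPS14B, for a platform protein, was positive on replicate 1 and otherwise below 0, at 0.05, -0.30, -0.83 and -0.82 (mean -0.47 ± 0.12, adjusted p = 0.00402; 0.0795 with no dye term). RPS22B, for a body protein, read 0.04, -0.27, -0.75 and -0.48 (mean -0.36 ± 0.10, adjusted p = 0.00483; 0.0802 without replicate 3).

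The other 6 that fell were RPS17B, RPS29B, RPS22A, RPS7B, RPS29A and RPS9B, from -0.39 to -0.22. RPS6B, for a protein phosphorylated downstream of the TOR kinase, could be fitted without the acute arrays and read -1.13, -0.86, 0.30 and 0.22 here (-0.37 ± 0.10, adjusted p = 0.00908). Its signs followed the dye. The 12 members called in the yap1 strain were all called lower in the acute group, where 52 of 54 members were, and over the 54 members the group means correlated with r = 0.54, against r = 0.80 over all 4373 ORFs. These r are descriptions across genes that share arrays and normalization. In the plot of the acute group against the yap1 strain, RPS7A and RPS26B lay furthest to the lower left, and RPS9B was deep in the acute group but only -0.22 in the yap1 strain. Of the listed genes, 6 of 7 bound proteins, 9 of 22 assembly factors and 2 of 5 regulators (RAP1 and HMO1) fell in the yap1 strain, where 20.6% of all ORFs did.

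**Figure D3:**
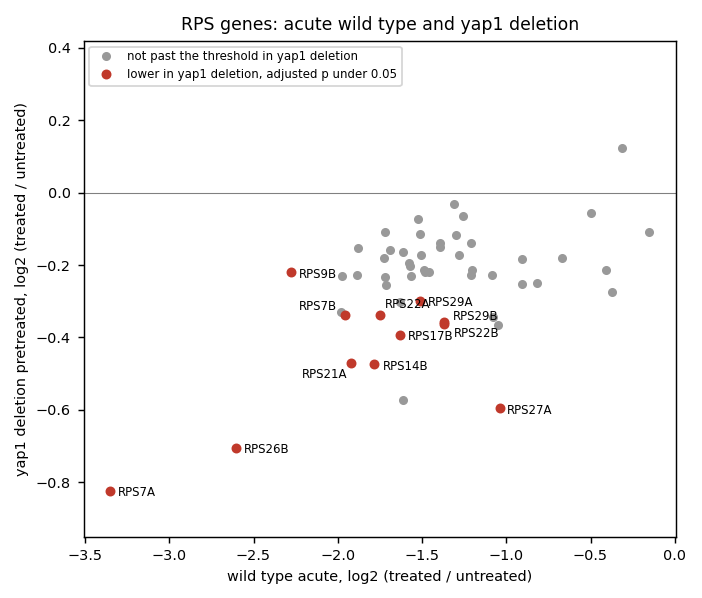
Mean log2 ratio of each of 54 RPS genes in acute wild type cells (horizontal axis) and in the pretreated yap1 deletion strain (vertical axis), each over 4 arrays. Red points are the 12 genes that fell in the yap1 strain, which all lie at or below -0.22 on the vertical axis, with RPS7A lowest on both axes.

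The ratio in the yap1 strain was lower than in pretreated wild type cells for 4 of 54 members, a share near the 6.88% of all ORFs that were lower. They were RPS14B (-0.68 ± 0.17, adjusted p = 0.00875), RPS7A (-0.61 ± 0.18, adjusted p = 0.0207), RPS22B (-0.44 ± 0.13, adjusted p = 0.0267) and RPS27A (-0.54 ± 0.17, adjusted p = 0.0302). In pretreated wild type cells RPS14B had read 0.28, 0.14, 0.16 and 0.22, so its groups overlapped at no array. RPS7A there read 0.23, 0.13, -0.67 and -0.55, which reached the 2 Cy3 values of the yap1 strain. RPS22B read 0.09, 0.02, 0.08 and 0.13 and touched the range of the yap1 strain at 1 array. RPS27A read -0.56, -0.40, 0.35 and 0.38 and overlapped it. With no dye term 0 members were called, and the count was 1 without yap1 replicate 3 and 2 without yap1 replicate 4 or wild type replicate 1 or 4. More members were called with a dye term per group or with only the arrays compared. The share of all ORFs called in these fits is not given here, so the counts are not read as a result about the members. RPS14B kept its call without any single array of these groups. RPS7A lost it without yap1 replicate 3 or 4 or wild type replicate 1, RPS22B without yap1 replicate 3 or 4 or wild type replicate 1, 2 or 4, and RPS27A without yap1 replicate 1, 2 or 3 or wild type replicate 3 or 4. The median untreated intensity of an array was 1550 to 1590 in the yap1 strain against 714 to 835 in pretreated wild type cells, the untreated RNA of the yap1 arrays may be that of wild type cells, and the part of either in these differences was not tested.

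In the mga2 deletion strain 0 members were called, where 0.0229% of ORFs were, and 0 had an unadjusted p under 0.05. The members formed the tightest set of the 6 groups, from -0.26 to 0.07 with an SD of 0.08 over members. All ORFs tested were also tightest in this group, with an SD of 0.09. The median RPS ratio was -0.10, and 48 of 54 members had a mean below 0. So did 57 of 80 RPL genes and 2442 of 4373 ORFs. RPS12, for a head protein, was the lowest, at -1.62, -1.09, 0.57 and 1.12 (mean -0.26 ± 0.25, adjusted p = 0.999), which split by dye, and no ORF had a lower ratio on replicate 1. Against wild type 0 members were called, again with 0.0229% of ORFs, and 3 had an unadjusted p under 0.05. These were RPS25B, which was higher (0.31 ± 0.13, adjusted p = 1), and RPS8A (-0.34 ± 0.15, adjusted p = 1) and RPS4B (-0.35 ± 0.15, adjusted p = 1), which were lower.

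The rox1 deletion strain also gave 0 calls, with 0.0915% of ORFs called and 2 members at an unadjusted p under 0.05. Its median was 0.08, and 16 of 54 members had a mean below 0, fewer than in any other group. The same held for 27 of 80 RPL genes and 2209 of 4373 ORFs. RPS6A was highest with 0.41, 0.49, 0.98 and -0.09 (mean 0.45 ± 0.16, adjusted p = 0.504), while RPS17B, for a head protein, read 0.30, 0.25, 0.20 and 0.20 (mean 0.24 ± 0.11, adjusted p = 0.734). All 4 arrays of RPS17B were above 0. The difference from wild type passed the threshold for 0 members, where 1.44% of ORFs did, and 7 had an unadjusted p under 0.05, led by RPS6A (0.62 ± 0.23, adjusted p = 0.267) and RPS14A (-0.53 ± 0.20, adjusted p = 0.275).

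Paralogs were then set against each other on each array. In 23 pairs with both copies measured in acute cells, the median size of the A minus B difference was 0.38. It was 0.09 in pretreated, 0.10 in adapted and 0.13 in yap1 deletion cells, and 0.04 and 0.05 in the mga2 and rox1 strains. In acute cells 4 pairs (RPS26, RPS0, RPS7 and RPS9) differed by over 1, against 0 of 34 RPL pairs, whose widest difference was 0.94 and whose median was 0.29. In 11 of 23 RPS pairs the sign was the same on 4 of 4 arrays. With 4 arrays no exact sign-flip permutation test can reach the threshold, so pair differences are given with their spread and no test.

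RPS26 had the widest gap, with RPS26A above RPS26B by 2.77, 2.73, 1.47 and 1.95 on the acute arrays (mean 2.23 ± 0.63, SD, n = 4). Both dye orientations gave the same sign. It was -0.02 ± 0.46 in pretreated cells, 0.21 ± 0.46 in adapted cells, where the sign followed the dye, and 0.43 ± 0.14 in the yap1 strain, where RPS26A was again higher on 4 of 4 arrays.

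RPS7 went the other way, with A minus B differences of -1.17, -1.71, -1.37 and -1.33 on the acute arrays (mean -1.39 ± 0.23). The same sign was found on 4 of 4 arrays in adapted cells (-0.38 ± 0.08) and in the yap1 strain (-0.49 ± 0.18). In pretreated wild type cells, and in the mga2 and rox1 strains, it changed between arrays (-0.10 ± 0.26, -0.01 ± 0.16 and 0.05 ± 0.36).

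For RPS0 the A minus B differences on the acute arrays were -3.21, -2.52, -0.49 and -0.71 (mean -1.73 ± 1.34). RPS0A, at -2.70, -2.37, -1.08 and -1.39, was the lower on 4 of 4 arrays, but the gap was several times wider in Cy5. RPS0A was also the lower on 4 of 4 arrays in adapted cells (-0.52 ± 0.20), the widest pair difference there. RPS9 showed the converse dependence, with RPS9A above RPS9B by 0.43 and 0.07 in Cy5 and by 1.93 and 1.88 in Cy3 (mean 1.08 ± 0.97), and in the yap1 strain the pair differed by 0.01 ± 0.22.

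A smaller gap of 1 sign was that of RPS21, where A minus B was -0.32, -0.29, -0.74 and -1.21 (mean -0.64 ± 0.43). RPS21A was the lower on 4 of 4 arrays in adapted cells (-0.22 ± 0.09) and in the yap1 strain (-0.30 ± 0.05) too. The closest pairs in acute cells were RPS1 (-0.05 ± 0.83), RPS30 (0.10 ± 0.40) and RPS29 (-0.14 ± 0.39). Their means hid wide arrays: RPS1A minus RPS1B was -0.83, -0.71, 0.62 and 0.70, with the sign set by the dye. The sign of A minus B in acute cells was shared with the yap1 strain in 18 of 23 pairs and with adapted cells in 16 of 23. Copies of a pair encode the same or nearly the same protein, so a probe for one may also bind cDNA of the other. Such binding would pull a difference between copies towards 0. How far the probes separate them was not tested.

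**Figure D4:**
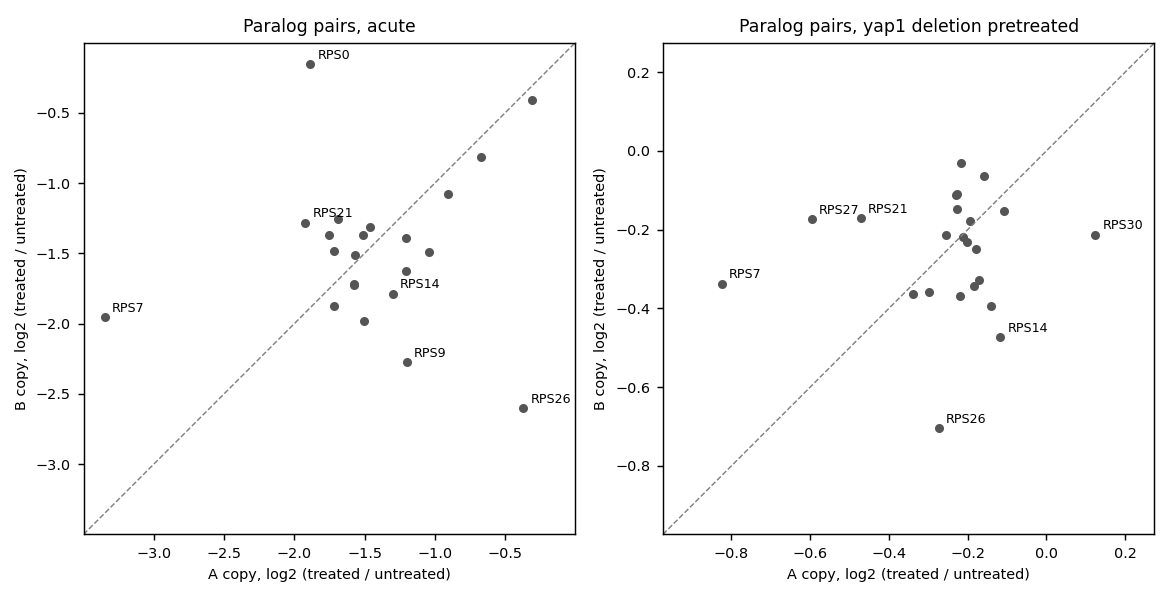
Mean log2 ratio of the A copy (horizontal axis) and the B copy (vertical axis) of the RPS pairs shown over 4 arrays, in acute wild type cells (left) and the pretreated yap1 deletion strain (right), with the dashed line marking equal ratios. The 6 pairs with the widest difference are named in each panel, and RPS26 and RPS7 lie on opposite sides of the line in both. Axes differ in range between the panels.

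RPS genes, like the other ORFs on these arrays, differed widely between the dye orientations. The dye component, the mean of the Cy5 arrays minus that of the Cy3 arrays, had an SD over members of 0.74 in pretreated, 0.64 in adapted and 0.92 in acute cells, and of 0.55, 0.74 and 0.55 in the mga2, rox1 and yap1 strains. Over all ORFs tested it was of similar width, with SDs of 0.75, 0.69, 0.80, 0.44, 0.60 and 0.50 in the same order. Its sign was the same in all 6 groups for 19 of 54 members. RPS1A had components of -2.22, -1.61, -3.20, -1.53, -2.26 and -1.52 in the order of the groups above, always lower in Cy5. RPS2, for a protein of the entry channel, ran the opposite way with 1.80, 1.80, 1.79, -0.01, 1.31 and 0.76, with the mga2 strain the exception. For RPS8B it was -2.55 in pretreated cells and -0.48 in the mga2 strain, and for RPS12 it was 2.20 in the mga2 strain against -0.21 in pretreated cells. The component divided by 2, its weight on a single array, was larger than the mean ratio for 37 of 54 members in pretreated, 39 in adapted, 36 in mga2, 40 in rox1 and 23 in yap1 cells, but for 3 in acute cells. Each group holds both orientations equally, so a dye effect that is the same in each array cancels from its mean.

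**Figure D5:**
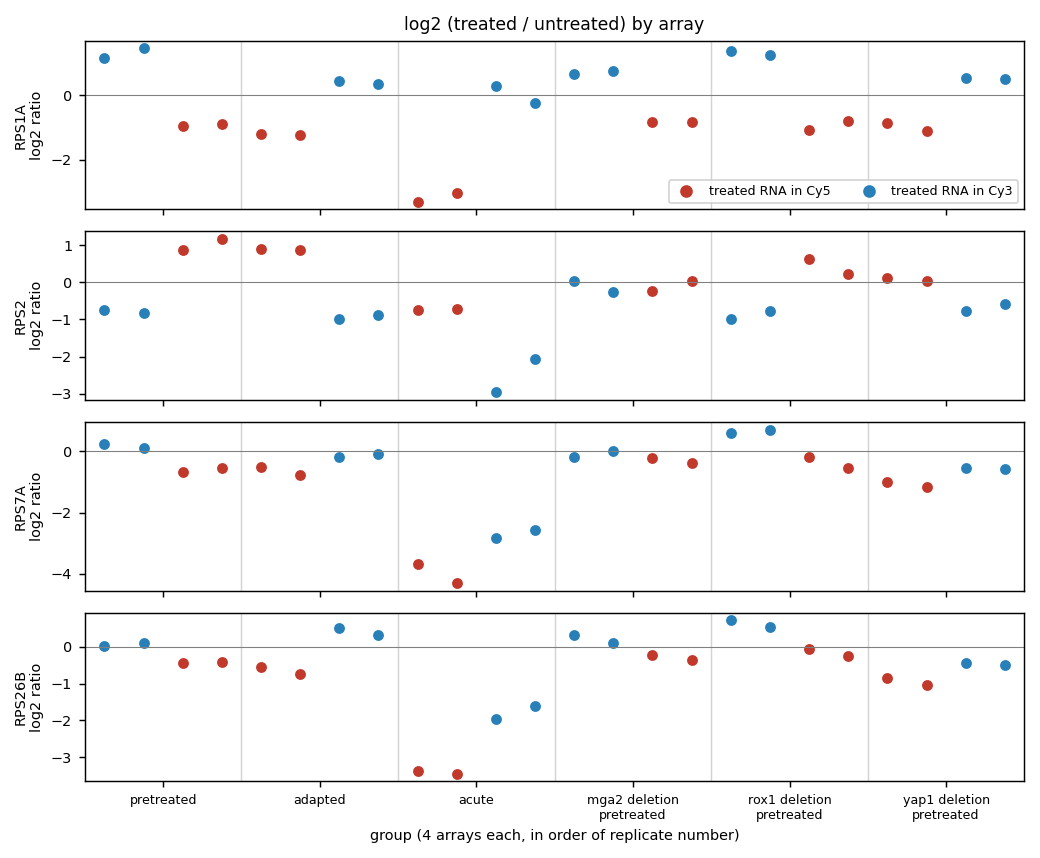
Log2 ratio of treated to untreated intensity (vertical axes, with their own ranges) of RPS1A, RPS2, RPS7A and RPS26B on each of 24 arrays, in order of group and replicate (horizontal axis). Red points had treated RNA in Cy5 and blue points in Cy3. RPS1A is lower in Cy5 in all 6 groups, while RPS7A and RPS26B are low on all 4 acute arrays in both dyes.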

How the data were processed

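Per the labels and methods, channel 1 held treated and channel 2 untreated RNA. The authors scanned the arrays on a GenePix or a ScanArray instrument, quantified them in GenePix and applied background and quantile normalization, and the deposited table gives 1 intensity per ORF and channel. Which scanner read which array and how spots were merged are not given in the sources used here. Within a group the 4 arrays have almost equal quantiles of their log2 ratios (largest difference 0.00729), so the most extreme genes share floor values and their spread is understated. Missing ORFs numbered 9 to 32 in wild type groups and, for the deletion strains, 600 (mga2), 1866 (rox1) and 631 (yap1), and the filter behind them is not stated. A further deposited table of spot values carries no gene names and was not used.

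Log2 (channel 1 / channel 2) was computed per ORF and array, with 5751 ORFs named through RefSeq locus tags (assembly R64). The 4373 ORFs with values on at least 3 arrays of each group were fitted in R 4.3.3 with limma 3.58.1 (lmFit, eBayes): 6 group means plus 1 dye coefficient per ORF common to all groups, which left 17 residual degrees of freedom. The study's own test, VERA with dye bias correction, was not run. Tests were two-sided and Benjamini-Hochberg adjusted within each of 11 contrasts. The fit was checked on simulated data. Group values of members are means of 4 arrays, and strain contrasts share the wild type pretreated arrays.

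Members named with per-array values were the 6 lowest and 4 highest in acute cells, up to 6 called (or the leading 2 where none was) in each other comparison, and the 6 widest and 3 closest acute pairs. Some members that this rule takes are not reported here. Further members were chosen after their values were seen. Of the lists, up to 4 genes with the largest acute change were eligible, and HRR25, HMO1 and SFP1 were named beyond that where a count turned on them. Members and gene lists were chosen with earlier results of these data known. Deviations of same-numbered arrays of different groups correlated with r from -0.65 to 0.64 (median -0.04 over 60 pairs). For arrays of different number r ran from -0.63 to 0.68 (median 0 over 180 pairs). The numbers were therefore not taken to pair samples. The number of arrays limits the precision, as does each gene's own spread. Alternatives were fits without the dye term or with one per group, median centring, loess within arrays, the dimmest 0.25 of ORFs left out, a replicate block, ORFs valued in the wild type groups, only the arrays compared, and each replicate left out.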

Additional observations from a re-analysis of the deposited data

Results flagged for a closer look

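RPS30B on acute replicate 2 had a log2 ratio of -0.81, far from the other arrays of its group (-0.24, -0.28 and -0.30). It was 1 of 49 groups of 4 arrays checked for a value that stands apart, and chance alone would mark about 1 in 20.

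A difference between treatment protocols was found for 52 of 54 members, whose ratio was lower in acute than in adapted cells (test of the difference in limma), as it was for 32% of all ORFs. A difference between strains was found for 4 of 54 members, a share near the 6.88% of all ORFs, whose ratio after the low dose was lower in the yap1 deletion strain than in wild type cells: RPS14B (-0.68), RPS7A (-0.61), RPS22B (-0.44) and RPS27A (-0.54).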

How the results depend on the processing

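For acute cells the count of 52 lower members stayed between 49 and 54 under every alternative run, and without single arrays between 50 and 52. In adapted cells the 1 call became 0 with no dye term, after centring, after loess or with the replicate block, 5 among ORFs valued in all 3 wild type groups, 9 when each group had its own dye term and 15 with its own arrays only, and leaving out a replicate gave 0 to 1. In the yap1 strain 12 calls became 4 with no dye term, 6 after loess, 30 when each group had its own dye term and 45 with its own arrays only (7 to 10 without single arrays). For yap1 deletion minus wild type 4 calls became 0 with no dye term, 2 after loess, 16 when each group had its own dye term and 14 with only the arrays compared (1 to 6 without single arrays). Pretreated cells had 26 calls in place of 0 with their own arrays only. With a dye term per group adapted minus pretreated gave 1 call and rox1 deletion minus wild type 2. Apart from centring, the share of all ORFs called in each of these fits is not given here. The counts therefore show only how far calls depended on the fit.

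After loess, whose curve at high intensity includes the RPS genes themselves, the acute means of RPS30A and RPS0B turned to 0.077 and 0.28. Leaving out acute replicates moved RPS0B between -0.40 and 0.046, above 0 without replicate 3 (0.015) or 4 (0.046). The causes of these moves were not tested. The replicate block gave 10 calls in the yap1 strain, 5 for yap1 deletion minus wild type and 52 in acute cells. Its numbers were not taken to pair samples, and the share of all ORFs called with it is not given here. The spot values without gene names could not give member values and were not run.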
